A study of Mus musculus with 39 samples.

Results

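The mouse testis was compared at 14.5 and 11.5 days post partum (dpp), across all genes measured on a 1-colour Illumina bead array. The arrays were chosen by their labelled source, testes that developed in vivo at these ages, with 3 arrays at 14.5 dpp and 3 at 11.5 dpp, so that 6 of the series' 39 samples are described. The labels give the tissue and the sex and no strain, treatment or altered gene, so the animals of both ages are described by age alone. Nothing in the labels tells if separate animals gave the 3 samples of an age. The p-values then measure only the spread between samples of a group, pooled over all 13 groups of the series. The labels also give no slide or scan batch. In the order of the series the arrays of 14.5 dpp alternate with those of 7.5 dpp, and those of 11.5 dpp follow in a later block. Age and batch may therefore go together, and the part of batch in any difference below was not tested. The rest of the series covers 7 ages in vivo from 7.5 to 21.5 dpp and testes kept in organ culture from 7.5 dpp. The testes cultured for 7 days (to 14.5 dpp) and for 4 days (to 11.5 dpp) are used below for the same 3 days outside the body.

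In the first wave of mouse spermatogenesis, germ cells pass through the stages of meiotic prophase nearly together, so that the age of the animal sets the most advanced cell present. Early in prophase chromosomes pair and are cut and repaired by recombination. In pachytene the paired chromosomes are joined along their length by the synaptonemal complex, the X and Y chromosomes are silenced in the sex body, and the spermatocyte starts to transcribe many genes whose products serve much later, in the spermatid and the sperm tail. In the testis as a whole the germ cells multiply beside Sertoli cells, which stop dividing and mature in the same weeks, and the interstitium, which holds Leydig cells, their precursors, vessels and macrophages. In bulk tissue, fewer cells of a type and less RNA per cell cannot be told apart, and this holds for every difference below.

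Values are normalized log2 signals of 1 array unless a mean ± SD is named (n = 3 per group). A difference is the mean at 14.5 dpp minus the mean at 11.5 dpp, in log2 units ± SE. The SE comes from 1 limma fit of all 13 groups and is not the spread of the 6 arrays alone. A gene was called when limma's Benjamini-Hochberg adjusted p over all 12518 genes was below 0.05 and the difference was at least 2-fold, and it is said to have risen or fallen only then. Between 39.4% and 40.7% of probes were detected on the 14.5 dpp arrays and between 40.3% and 43.1% on the 11.5 dpp arrays. Array correlations over all genes were 0.986 to 0.991 within 14.5 dpp, 0.967 to 0.986 within 11.5 dpp and 0.928 to 0.963 between the ages. The defining markers of the testis were present at both ages: Ddx4 and Dazl of germ cells, Sox9 and Amh of Sertoli cells, Cyp17a1 of Leydig cells and Acta2 of peritubular cells were each detected on all 6 arrays. Star, the cholesterol carrier of steroidogenic cells, was detected on 0 of 3 arrays at 14.5 dpp and 2 of 3 at 11.5 dpp, and Wt1 was not among the genes measured. Replicate 2 of 14.5 dpp stood apart in markers of another tissue. The mean of Lcn8 and Spink8, the 2 measured genes of epididymis and rete testis epithelium, was 6.37 on it, against 5.05 and 5.06 on the other arrays of that age and 5.08, 4.99 and 5.0 at 11.5 dpp. The mean of 22 macrophage genes was 7.70 on it, against 6.95 and 7.01 on its fellows and 7.67, 7.26 and 6.98 at 11.5 dpp. Without this array 577 genes rose and 414 fell, against 590 and 339 with it, and its part in the results was not tested.

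Between 11.5 and 14.5 dpp many genes of spermatocytes and of the future sperm tail rose (24 of 36 pachytene genes and 28 of 50 axoneme genes), and among the somatic lists interstitial progenitors held the most falls (7 of 19). The lists and their members were chosen with earlier results of these data known. Their shares and ranks here and below are therefore descriptions and no tests. Of 12518 genes, 590 rose (4.71%) and 339 fell (2.71%), which together is 7.42%. Rising genes were 63.5% of those called. Without background correction that share was 77.3%, with the authors' own normalized values 84.5%, and without a minimum difference 46.1%. The rises were the larger changes. Their median was 1.55 log2 units, and 198 genes rose by at least 2 units and 32 by at least 4. The median size of a fall was 1.18 units, and 8 genes fell by at least 2 units. Of the rising genes, 107 were below detection on all 3 arrays at 11.5 dpp and detected on all 3 at 14.5 dpp, while 367 were detected on all 6. Of the falling genes, 55 were detected on all 3 arrays at 11.5 dpp and on none at 14.5 dpp. The median difference over all genes was -0.07.

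The groups did not overlap for 586 of the 590 rising genes and 330 of the 339 falling ones. Over all genes the 3 values at 14.5 dpp lay wholly above the 3 at 11.5 dpp for 17.9% and wholly below for 22.9%, so separation alone is common at these ages. Where the lower group was below detection on all its arrays, the fold is printed as a lower bound, taken against the lowest signal of any detected probe on each array. For Fosb, undetected on replicate 2 of 14.5 dpp as well, the difference is given instead. The call, the rank and the counts and medians over genes use the fitted differences, which for such genes rest on background signal and are no bound.

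The gene with the largest rise was Ldhc, the lactate dehydrogenase subunit of spermatocytes and sperm. It stood at 13.31, 14.02 and 14.27 at 14.5 dpp, against 8.67, 6.43 and 8.15 at 11.5 dpp, a difference of 6.12 ± 1.34 (limma adjusted p = 0.00254). All 3 older arrays lay more than 4 log2 units above every younger one. Odf4, an outer dense fibre gene of the sperm tail, had values of 10.52, 10.71 and 10.93 at 14.5 dpp, against 4.81, 4.77 and 4.89 at 11.5 dpp, where it was below detection, and was at least 38.0-fold higher (adjusted p = 0.00143). Its arrays within each age were within 0.5 log2 units of each other. Fabp9, a fatty acid binding protein of the sperm head, stood at 13.03, 13.36 and 13.52, against 8.28, 6.58 and 7.86 at 11.5 dpp (5.73 ± 1.20, adjusted p = 0.00188). Adam5, a testis member of the ADAM family of surface proteins, was detected at 14.5 dpp alone, at least 21.4-fold higher.

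The other genes among the 12 largest separated rises were Tdrd6 (5.21), Mdh1b (5.13), Lypd11 (5.07) and Piwil1 (5.03), all log2 differences, and Pabpc2, Gm5878, Clec2m and Spag6l. Mdh1b is a malate dehydrogenase, Pabpc2 a testis poly(A)-binding protein made by a retrocopy, and Spag6l a protein of the central pair of the sperm tail. Pabpc2, Gm5878, Clec2m and Spag6l were below detection on all 3 arrays at 11.5 dpp, and were at least 15.6-fold, 16-fold, 21-fold and 20.9-fold higher at 14.5 dpp. Each of the 12 was lower at 13.5 dpp than at 14.5 dpp and higher again at 21.5 dpp. They were chosen by their values at 14.5 and 11.5 dpp, from which the lower level at 13.5 dpp follows in part.

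**Figure D1:**
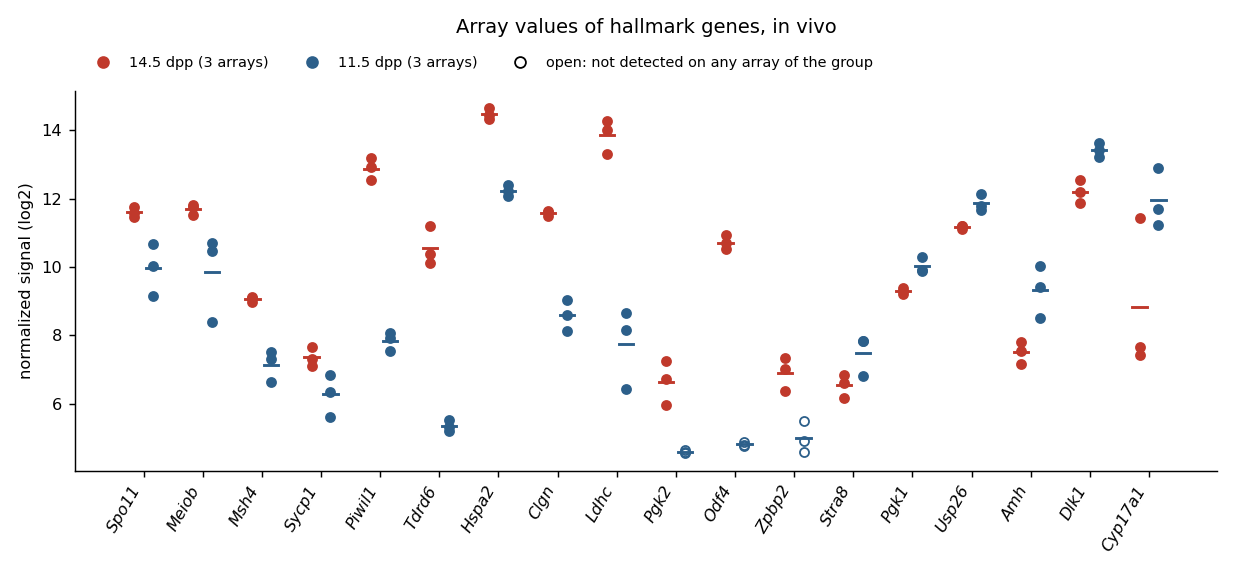
Normalized log2 signal (vertical axis) of 18 hallmark genes on each of the 3 arrays at 14.5 dpp (red) and the 3 at 11.5 dpp (blue), with horizontal bars for the group means and open points where a gene was below detection on all arrays of the group. The red points of Ldhc sit between 13.31 and 14.27 and the blue ones between 6.43 and 8.67. Pgk1, Usp26, Amh and Dlk1 have all red points below the blue ones, and in Cyp17a1 one red point lies at 11.44 among the blue.

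Some genes of recombination and of the synaptonemal complex rose, from levels already measured at 11.5 dpp. Of 20 measured recombination genes 7 rose and 0 fell, with a median difference of 0.50, and all 20 were detected on at least 1 array at 11.5 dpp. Spo11, the enzyme that cuts the chromosomes to start recombination, stood at 11.75, 11.48 and 11.59 at 14.5 dpp, against 10.04, 9.17 and 10.67 at 11.5 dpp (1.64 ± 0.47, limma adjusted p = 0.0141). Meiob, which binds the single-stranded DNA at the cuts, had values of 11.82, 11.51 and 11.75, against 10.47, 8.40 and 10.70 (1.84 ± 0.50, adjusted p = 0.0102). In both genes the younger arrays were the more scattered, with replicate 2 lowest. Msh4, which stabilizes crossover intermediates, rose by 1.93 ± 0.37 (adjusted p = 0.00098). Hsf2bp, which acts with the strand exchange proteins, rose by 1.92 ± 0.31 (adjusted p = 0.00034).

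The largest rise of the recombination list was Cntd1, a cyclin-like protein that matures crossovers in mid pachytene, at 9.99, 10.25 and 10.29, against 6.60, 5.56 and 7.40 (3.66 ± 0.68, adjusted p = 0.000819). The remaining called members were Rad51ap2 (1.52) and Psmc3ip (1.19), a partner of the recombinases. Mlh3, the endonuclease subunit of late crossovers, was 0.51 ± 0.26 higher and did not pass (adjusted p = 0.171). Without replicate 2 of 11.5 dpp, Spo11 (1.25, adjusted p = 0.0879) and Meiob (1.11, adjusted p = 0.107) were no longer called, and 4 of the 7 members were.

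Of 17 measured genes of the synaptonemal complex and meiotic cohesin, 5 rose and 0 fell, with a median of 0.54. Kash5, which ties chromosome ends to the cytoskeleton through the nuclear envelope, stood at 10.31, 10.74 and 10.78 at 14.5 dpp, against 8.45, 7.86 and 8.76 at 11.5 dpp (2.25 ± 0.39, adjusted p = 0.000498). Every older array lay above every younger one by at least 1.5 log2 units. Spdya, which with CDK2 acts at the same chromosome ends, rose by 1.30, Sycp2 of the axial element by 1.21, Hormad2 of unsynapsed axes by 1.12 and Sycp1 of the central region by 1.08. Of these only Kash5 kept its call without replicate 2 of 11.5 dpp, and Sycp1 was then 0.75 higher (adjusted p = 0.0988). Without replicate 1 of 14.5 dpp the count was also 1.

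The piRNA pathway makes small RNAs that guide PIWI proteins, first against transposons and, in pachytene, from a separate large set of loci. Of its 21 measured genes 9 rose and 0 fell, with a median of 0.80. Piwil1 (MIWI), the PIWI protein of pachytene spermatocytes and spermatids, stood at 12.54, 12.93 and 13.18 at 14.5 dpp, against 7.94, 7.54 and 8.07 at 11.5 dpp (5.03 ± 1.12, adjusted p = 0.00273). Piwil2 (MILI), present from spermatogonia onward, had values of 12.94, 12.85 and 13.05, against 11.03, 11.81 and 11.71 (1.43 ± 0.30, adjusted p = 0.00186). The ages were separated in both genes, and the larger difference was that of Piwil1. Tdrd6, a tudor scaffold of the chromatoid body, stood at 10.11, 10.37 and 11.19, against 5.33, 5.21 and 5.52, where 1 of 3 arrays detected it (5.21 ± 1.12, adjusted p = 0.00217).

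Tdrd5, which carries pachytene piRNA precursors for processing, rose by 2.24 ± 0.44 (adjusted p = 0.00118), and Ddx4, the germ cell helicase, by 1.69 ± 0.50 (adjusted p = 0.017). Tdrd12 (1.44), Pld6 (1.25), Tdrd1 (1.18) and Tdrd9 (1.04) were the other called members, all log2 differences. The count was 5 without replicate 3 of 14.5 dpp and 5 without replicate 1 of 11.5 dpp. In those settings Ddx4 was 1.61 (adjusted p = 0.0648) and 1.41 (adjusted p = 0.0901) higher.

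Of 18 measured transcription regulators of spermatocytes 5 rose and 0 fell, with a median of 0.11. Rfx4, a winged-helix factor of the RFX family, was below detection on all 3 arrays at 11.5 dpp (4.71, 4.68 and 4.46) and stood at 8.92, 9.03 and 9.34 at 14.5 dpp, at least 12.3-fold higher (adjusted p = 0.000646). Rfx2, the RFX factor needed for spermatid development in mice, had values of 11.47, 11.55 and 11.81, against 9.25, 8.73 and 9.34 (2.5 ± 0.44, adjusted p = 0.000603). Crem, whose activator form drives spermatid genes, rose by 2.40 ± 0.51 (adjusted p = 0.00199), and Brdt, a testis bromodomain protein, by 1.76 ± 0.39 (adjusted p = 0.00292). Tcfl5, a helix-loop-helix factor of spermatocytes, rose by 1.04 ± 0.28 (adjusted p = 0.00984). It was not called without replicate 3 of 14.5 dpp (0.96, adjusted p = 0.0513) or without replicate 1 of 11.5 dpp (0.94, adjusted p = 0.0497). Mybl1, the MYB factor that acts at the onset of pachytene, was not among the genes measured.

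Because RFX genes rose and MYB and RFX factors are known regulators of this stage, the promoters of the called genes were read for short motifs in RefSeq windows of 300 bases (build GRCm38.p6, 250 before to 50 after each start site). Such a window was present for 471 of the rising genes, 247 of the falling genes and 10082 of all genes tested. Both strands were searched, and a match is a description of these letters and not a binding site. The RFX motif GTTGCCA was in the window of 10.2% of rising genes, 2.83% of falling genes and 4.99% of all genes tested. The MYB motif AACTGCC was in 7.86% of rising, 3.24% of falling and 4.54% of all genes tested. The looser MYB core AACNGNC, which includes every AACTGCC, was in 54.1%, 33.2% and 38.5%. The motif CNCCTCAG of STRA8 and MEIOSIN, factors of meiotic entry, was in 11.7%, 8.1% and 11%. The palindrome TGACGTCA bound by CREM was in 2.55%, 1.62% and 3.37%, and the E-box CACGTG in 13.6%, 9.72% and 11.2%. Over all 32851 promoter windows of the table, 4.38% held the RFX motif and 4.12% the MYB motif.

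The following stretches of 61 bases show the match in 6 of the rising genes described here, those with the largest differences among the named genes that hold a match away from the ends of the upstream window, each read on the gene's own strand from 5′ to 3′, with the matching letters in capitals. In Piwil1, Rfx4, Pgk2 and Tcfl5 the capitals are the reverse complement of AACTGCC, in Ybx2 they are the reverse complement of GTTGCCA, and in Tcp11 they are GTTGCCA itself and, further on, its reverse complement. The Piwil1 stretch lies at chr5:128736144-128736204 (+), Rfx4 at chr10:84838068-84838128 (+), Pgk2 at chr17:40208722-40208782 (-), Tcfl5 at chr2:180642800-180642860 (-), Ybx2 at chr11:69936148-69936208 (+) and Tcp11 at chr17:28080758-28080818 (-). All lie upstream of an annotated start site, and of the matches shown the nearest ends 47 bases before it, in Rfx4.
Piwil1: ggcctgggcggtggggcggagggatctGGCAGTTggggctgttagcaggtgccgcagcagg
Rfx4: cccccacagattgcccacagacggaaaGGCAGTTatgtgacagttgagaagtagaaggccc
Pgk2: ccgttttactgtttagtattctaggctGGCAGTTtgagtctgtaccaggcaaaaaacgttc
Tcfl5: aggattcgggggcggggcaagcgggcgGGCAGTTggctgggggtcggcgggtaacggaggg
Ybx2: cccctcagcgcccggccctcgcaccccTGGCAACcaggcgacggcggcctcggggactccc
Tcp11: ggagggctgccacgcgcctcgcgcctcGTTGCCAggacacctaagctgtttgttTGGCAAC

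Genes known from pachytene spermatocytes had the highest share of rising members among the 35 lists, 66.7%. This rank is no test, as the members were chosen with earlier results of these data known. Of 36 measured pachytene genes, 24 rose and 0 fell, with a median of 2.15, and 17 were below detection on all arrays at 11.5 dpp. The mean of these 36 genes on each array was 8.56, 8.84 and 9.10 at 14.5 dpp, against 6.75, 6.36 and 6.65 at 11.5 dpp. The ages were separated by more than the spread within either one. Replicate 3 was highest of the older arrays, and 14 of the 24 were called without it.

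Hspa2, the heat shock protein that assembles the kinase of the first meiotic division, stood at 14.35, 14.44 and 14.65 at 14.5 dpp, against 12.21, 12.08 and 12.39 at 11.5 dpp (2.25 ± 0.41, adjusted p = 0.000646). Clgn, calmegin, a chaperone of sperm surface proteins, had values of 11.49, 11.60 and 11.66, against 8.60, 8.13 and 9.03 (2.99 ± 0.57, adjusted p = 0.000996). The older values of both genes lay within 0.5 log2 units of each other. Ybx2, which binds stored messenger RNA in germ cells, stood at 12.15, 12.55 and 12.61, against 8.39, 8.33 and 9.41 (3.73 ± 0.62, adjusted p = 0.000391). Psma8, the proteasome subunit of spermatocytes, rose by 2.46, and Spink2, an inhibitor of acrosomal proteases, by 3.97. Of 29 germ cell RNA-binding genes 9 rose and 1 fell, with a median of 0.38, and 5 rose without replicate 3 of 14.5 dpp. The falling one, Nanos3 of spermatogonia, is described with those cells.

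Of 22 genes of the meiotic divisions 3 rose (13.6%, beside 4.71% of all genes) and 0 fell, with a median of 0.32. Besides Hspa2 these were Meikin, which holds sister kinetochores together in meiosis I, at 7.98, 8.08 and 8.31, against 5.73, 4.63 and 5.90 (2.70 ± 0.52, adjusted p = 0.00102), and Sgo2a, which protects centromeric cohesin (1.06 ± 0.23, adjusted p = 0.00221). Both were called without each array in turn. Ccna1, the cyclin of late pachytene and diplotene, was below detection on all 6 arrays, and Aurkc, the meiotic Aurora kinase, was 0.69 ± 0.32 higher and did not pass (adjusted p = 0.121).

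Germ cell forms of energy enzymes rose in 8 of 13 measured members, with 0 falling and a median of 2.05. Cox8c, a testis subunit of cytochrome c oxidase, stood at 13.17, 13.14 and 13.45 at 14.5 dpp, against 9.74, 8.77 and 9.37 at 11.5 dpp (3.96 ± 0.84, adjusted p = 0.00191). Slc2a3, a glucose transporter, rose by 2.76, Cox6b2, another oxidase subunit, by 2.51 and Eno4, a sperm enolase, by 1.19. Gk2, a glycerol kinase retrocopy, had values of 7.32, 6.96 and 7.58, against 4.36, 4.51 and 4.43, and was at least 3.53-fold higher from below detection (adjusted p = 0.00256). The count of this list was 5 without replicate 3 of 14.5 dpp.

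The genes of the axoneme, the microtubule engine of flagella and motile cilia, rose in 28 of 50 measured members with 0 falling and a median of 1.35, although no sperm tail exists at this age. Spag6l stood at 9.68, 9.61 and 10.28 at 14.5 dpp, against 5.06, 4.76 and 4.86 at 11.5 dpp, below detection, and was at least 20.9-fold higher (adjusted p = 0.0047). Dynlrb2, a dynein light chain, had values of 9.86, 10.16 and 10.58, against 5.85, 5.37 and 5.17 (4.74 ± 1.06, adjusted p = 0.00292). Cfap65, a central pair protein, was at least 13.7-fold higher from below detection (adjusted p = 0.00294). In all 3 genes the groups were more than 3.5 log2 units apart. The assembly factor Zmynd10 rose by 4.28, Cfap206 of the radial spokes by 3.98, the dynein intermediate chain Dnaic1 by 3.56, Rsph1 of the radial spoke head by 3.18, the ruler protein Ccdc39 by 3.09 and the dynein heavy chain Dnah8 by 2.85. Without replicate 3 of 14.5 dpp, 20 members were called.

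Acrosome and round spermatid genes were mixed. Of 33 measured, 9 rose and 0 fell with a median of 0.15, and 19 were below detection on all 3 arrays at 14.5 dpp. Acr, the acrosomal protease acrosin, stood at 8.32, 8.90 and 8.99 at 14.5 dpp, against 4.58, 4.84 and 5.11 at 11.5 dpp, below detection, and was at least 9.64-fold higher (adjusted p = 0.00118). Tekt1 of the flagellar microtubules (4.07), Dkkl1 of the acrosome (3.94), the chaperonin subunit Cct6b (2.86) also rose. Zpbp2 of the acrosomal matrix was at least 2.71-fold higher from below detection (adjusted p = 0.0159), and was not called without replicate 3 of 14.5 dpp (adjusted p = 0.0788) or replicate 3 of 11.5 dpp (adjusted p = 0.0535), and the list held 5 calls without replicate 3 of 14.5 dpp. Spaca1 of the acrosomal membrane was 0.76 ± 0.34 higher and did not pass (adjusted p = 0.109). Acrv1, a product of round spermatids, was below detection on all 6 arrays.

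Of 23 measured genes of elongating spermatids, 2 rose (8.7%, beside 4.71% of all genes) and 0 fell, with a median of -0.02. The 2 were Odf4 and Odf2, both of the outer dense fibres. Of the 23, 19 were below detection on all 3 arrays at 14.5 dpp. Odf2 stood at 10.33, 10.42 and 10.49, against 9.12, 9.09 and 9.00 (1.34 ± 0.34, adjusted p = 0.00726), and encodes a protein that centrosomes of other cells also hold. Prm1, a protamine that packs sperm DNA, was below detection on all 6 arrays, at 4.47 to 4.49 at 14.5 dpp and 4.39 to 4.43 at 11.5 dpp. Tnp1, a transition protein, was below detection at 14.5 dpp (5.2, 5.30 and 5.42) and detected at 11.5 dpp at 6.58, 6.09 and 5.47, and did not pass (-0.74 ± 0.43, adjusted p = 0.22).

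**Figure D2:**
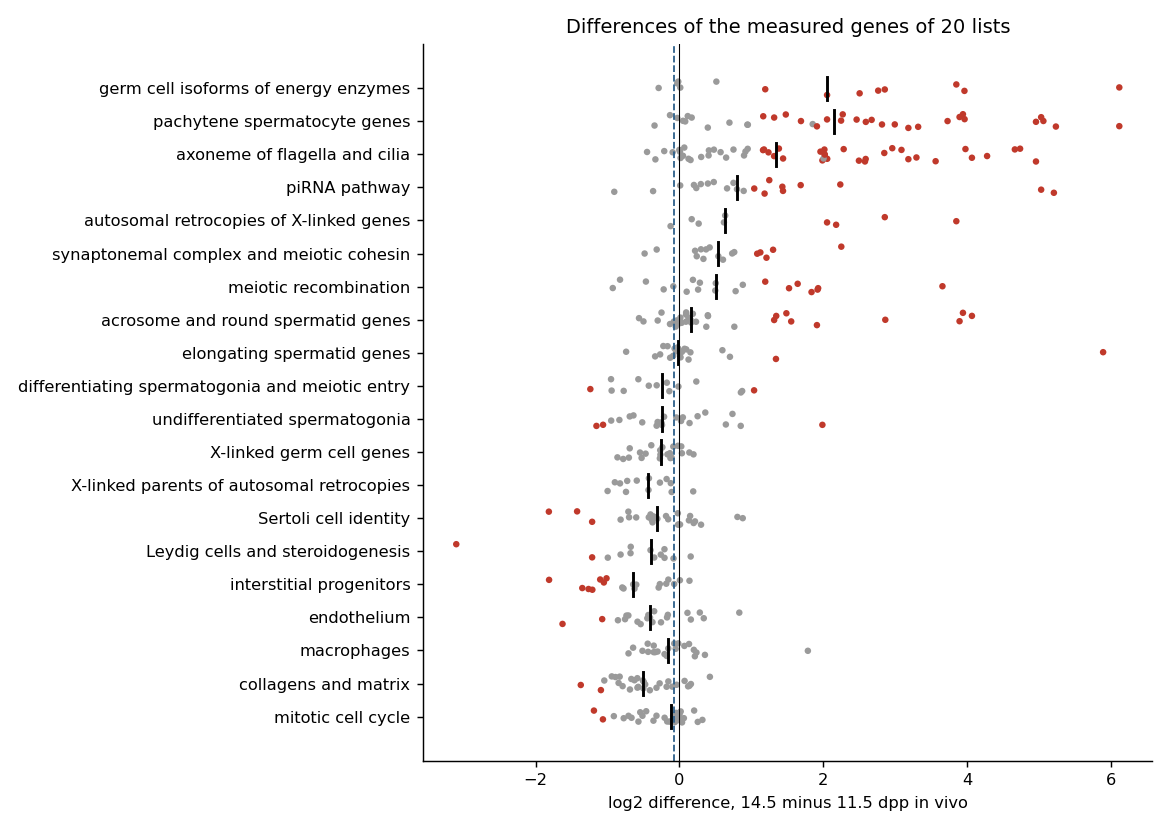
Log2 difference, 14.5 minus 11.5 dpp in vivo (horizontal axis), of every measured gene of 20 lists, 1 list per row; red points are called genes, grey points are not called, black bars are list medians and the dashed line is the median of all genes (-0.07). Pachytene spermatocyte genes reach 6.12 with a median of 2.15, axoneme genes have a median of 1.35, and the interstitial list has a median of -0.64.

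The X chromosome is silenced in pachytene, and more of its genes fell than rose. Of 470 X-linked genes measured, 2 rose (0.426%) and 24 fell (5.11%), against 4.86% and 2.62% of 12009 autosomal genes. The median difference was -0.30 on the X chromosome and -0.06 on the autosomes, and 77.4% of X-linked genes lay below 0, against 55.7% of autosomal genes. Without the minimum difference, 8 X-linked genes passed the adjusted p upward and 96 downward. The count of X-linked genes called lower was 16 without replicate 1 of 11.5 dpp and 39 without replicate 2 of 11.5 dpp. Most falls were small, and silencing in a share of the cells and a smaller share of other cell types cannot be told apart in whole testes.

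Among the X-linked genes that fell, Mid1ip1 averaged 9.94 ± 0.05 at 14.5 dpp and 11.28 ± 0.17 at 11.5 dpp (SD, n = 3 each; limma adjusted p = 0.000261). Bex2, a small adaptor protein best known from the nervous system, averaged 11.42 ± 0.08 at 14.5 dpp and 12.75 ± 0.09 at 11.5 dpp (limma adjusted p = 0.000261). Itm2a, a membrane protein, averaged 9.86 ± 0.13 and 11.27 ± 0.32 at these ages (limma adjusted p = 0.00278). Rhox10, a homeobox gene of the reproductive cluster on the X chromosome, fell by 1.35, its neighbour in that cluster Rhox9 was at least 1.63-fold lower, with no detection at 14.5 dpp, and Sox3, a factor of spermatogonia, fell by 1.04. 1700031F05Rik had the largest fall on the X chromosome, with 5.69, 5.05 and 4.72 at 14.5 dpp, below detection, against 7.03, 6.70 and 7.44 at 11.5 dpp, and was at least 2.66-fold lower. The 2 X-linked genes that rose were Dmrtc1b (1.68) and Sowahd (1.09). These X-linked genes, other than 1700031F05Rik, were picked after their values were seen.

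Of 22 X-linked germ cell genes 0 were called in either direction and the list median was -0.25, with 18 of the 22 below 0. Usp26, a ubiquitin protease of germ cells, stood at 11.20, 11.19 and 11.11 at 14.5 dpp, against 11.68, 11.80 and 12.13 at 11.5 dpp. Its groups did not overlap, and its difference of -0.70 ± 0.17 passed the adjusted p of 0.00571 but not the 2-fold minimum. Tex11, an X-linked crossover gene, had 10.29, 10.01 and 10.24 at 14.5 dpp, against 10.37, 10.11 and 10.32 (-0.09 ± 0.24, adjusted p = 0.84).

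Several X-linked housekeeping genes have autosomal retrocopies that spermatocytes use while the X chromosome is silent. Of 9 measured retrocopies 4 rose and 0 fell, and of 13 measured X-linked parents 0 were called, with 12 of the 13 below 0 and a median of -0.43. Pgk2, the retrocopy of phosphoglycerate kinase, stood at 5.95, 6.74 and 7.25 at 14.5 dpp, against 4.58, 4.55 and 4.65 at 11.5 dpp, below detection, and was at least 2.26-fold higher (adjusted p = 0.0223). Its parent Pgk1 had values of 9.20, 9.40 and 9.29, against 10.29, 9.90 and 9.88 (-0.73 ± 0.26, adjusted p = 0.0433, under the 2-fold minimum). Every array of Pgk2 was higher and every array of Pgk1 lower at 14.5 dpp. Prps1l1, a phosphoribosyl pyrophosphate synthetase, was at least 7.98-fold higher from below detection (9.30, 6.55 and 9.54, against 4.85, 4.54 and 4.46, adjusted p = 0.013), beside -0.18 for its parent Prps1.

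Tktl2 of the transketolases rose by 2.18 ± 0.40 (adjusted p = 0.000681), beside -0.11 for Tktl1. Fam50b and Cetn1 were below detection on all 6 arrays, beside differences of -0.83 for the parent Fam50a (adjusted p = 0.000894) and -1.0 ± 0.35 for Cetn2 (adjusted p = 0.039), both under the 2-fold minimum. The parents Pdha1 (-0.59) and Mcts1 (-0.74) had no measured retrocopy. Without replicate 3 of 14.5 dpp, 2 of the 4 retrocopies were called, and Pgk2 (adjusted p = 0.108) and Prps1l1 (adjusted p = 0.0755) were not. Pgk2 also missed the threshold without replicate 2 of 14.5 dpp (adjusted p = 0.0557), replicate 1 of 11.5 dpp (0.0618) or replicate 2 of 11.5 dpp (0.0534), and Prps1l1 without replicate 1 of 14.5 dpp (0.0572). How far a probe for one copy also binds the other was not tested, as probe sequences were not used here.

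**Figure D3:**
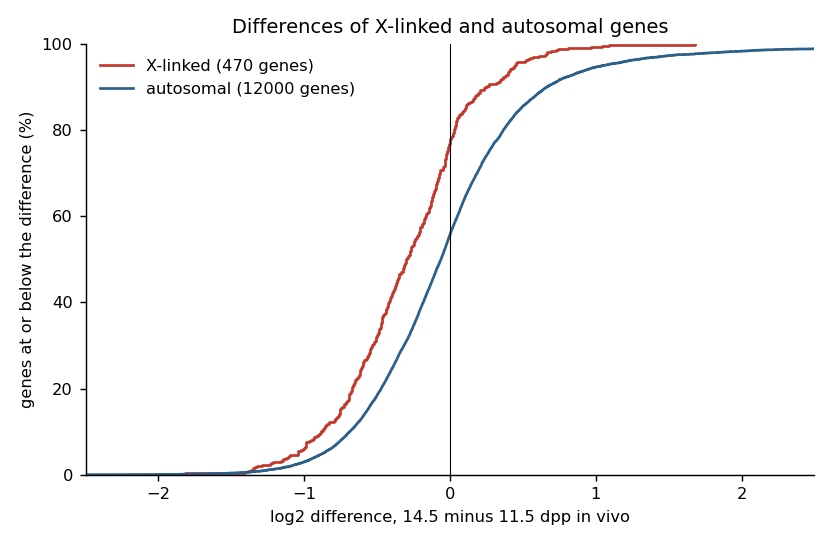
Cumulative share of genes (vertical axis, percent) at or below each log2 difference, 14.5 minus 11.5 dpp in vivo (horizontal axis, shown from -2.5 to 2.5), for 470 X-linked genes (red) and 12009 autosomal genes (blue). The X-linked curve lies to the left: 77.4% of X-linked genes and 55.7% of autosomal genes are below 0.

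Among factors of the sex body, 2 of 18 rose (11.1%, beside 4.71% of all genes) and 0 fell, with a median of 0.29. H2ax, the histone phosphorylated along the silenced chromosomes, stood at 11.45, 11.70 and 11.57 at 14.5 dpp, against 10.97, 10.19 and 10.27 at 11.5 dpp (1.10 ± 0.29, adjusted p = 0.00873). It was under the 2-fold minimum without replicate 2 (0.95) or replicate 3 (0.99) of 11.5 dpp. It was also the 1 of 12 testis histone variants that rose (8.33%). Hormad2 was the other called factor and lost its call without replicate 2 of 11.5 dpp, so that 0 of 18 remained. Of 8 measured Y-linked genes 0 were called, with a median of 0.00 to 2 decimals.

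Spermatogonial genes were called in both directions. Of 23 measured genes of undifferentiated spermatogonia, 1 rose (4.35%) and 2 fell (8.7%), with a median of -0.24. Of 14 genes of differentiating spermatogonia and meiotic entry 1 rose and 1 fell (7.14% each), with a median of -0.25. Over all genes 4.71% rose and 2.71% fell, and the shares of these lists rest on 1 or 2 genes each. Zbtb16 (PLZF), a factor of undifferentiated spermatogonia, stood at 6.90, 7.01 and 6.33 at 14.5 dpp, against 6.90, 6.73 and 6.18 at 11.5 dpp (0.14 ± 0.23, adjusted p = 0.716). Kit, the receptor of differentiating spermatogonia, had 11.19, 11.24 and 11.25, against 10.60, 11.85 and 11.65 (-0.14 ± 0.36, adjusted p = 0.821). The groups of both genes overlapped. Nanos2 of stem cells differed by -0.30 ± 0.26 and did not pass (adjusted p = 0.442). Stra8, the gatekeeper of meiotic entry, stood at 6.85, 6.16 and 6.62, against 7.85, 6.81 and 7.83. Its difference of -0.95 ± 0.34 had an adjusted p of 0.0436 and missed the 2-fold minimum, which it passed without replicate 2 of 11.5 dpp (-1.30, adjusted p = 0.0156).

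Id4, used as a marker of spermatogonial stem cells, was the 1 member of its list that rose, with 7.30, 7.72 and 7.92 at 14.5 dpp, against 5.65, 5.69 and 5.62 at 11.5 dpp (1.99 ± 0.42, adjusted p = 0.00196). Its mean went on to 7.85 at 16.5 dpp and 8.28 at 21.5 dpp. Nanos3 stood at 6.67, 7.54 and 6.72, against 8.08, 8.09 and 7.95 (-1.06 ± 0.35, adjusted p = 0.0321), and Upp1 fell by 1.15 ± 0.33 (adjusted p = 0.0134). Dnmt3l, a cofactor of DNA methylation, fell by 1.24 ± 0.31 (adjusted p = 0.00615), and Rbm44 rose by 1.04 ± 0.34 (adjusted p = 0.0311). Nanos3 and Rbm44 each lost their call in 5 of the 6 settings that left out 1 array, and Upp1 without replicate 3 of 14.5 dpp (adjusted p = 0.058) or replicate 1 of 11.5 dpp (0.0612).

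In Sertoli cells the hormone of immaturity fell while most identity genes did not pass the test. Amh, which marks immature Sertoli cells, stood at 7.54, 7.82 and 7.16 at 14.5 dpp, against 10.03, 9.42 and 8.52 at 11.5 dpp (-1.82 ± 0.49, limma adjusted p = 0.0102). Its mean was 10.31, 10.03, 9.32, 8.43, 7.51, 7.63 and 5.39 at the 7 ages from 7.5 to 21.5 dpp. Of 27 measured Sertoli identity genes 0 rose and 3 fell (11.1%, beside 2.71% of all genes), with a median of -0.31. The other called members were the transcription factors Gata4 (5.55, 5.95 and 5.60, against 7.63, 7.17 and 6.58; -1.42, adjusted p = 0.00878) and Nr5a1 (6.85, 6.27 and 6.50, against 8.46, 7.37 and 7.43; -1.22, adjusted p = 0.0162), both also of Leydig cells. Without replicate 1 of 11.5 dpp, the highest for all 3 genes, 0 were called: Amh was then -1.46 (adjusted p = 0.0723), Gata4 -1.17 (0.0616) and Nr5a1 -0.86 (0.13). Amh was also not called without replicate 3 of 14.5 dpp (adjusted p = 0.0567), nor Nr5a1 without replicate 2 (0.0626) or 3 (0.0568) of that age.

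Sox9, the testis-determining factor kept by Sertoli cells, stood at 13.15, 13.22 and 13.22 at 14.5 dpp, against 12.34, 12.96 and 11.86 at 11.5 dpp (0.81 ± 0.28, adjusted p = 0.0373, under the 2-fold minimum). Without replicate 2 of 11.5 dpp it was called (1.09, adjusted p = 0.0131). Cldn11, of the blood-testis barrier, and Fshr, the follicle stimulating hormone receptor, differed by 0.01 ± 0.24 and -0.16 ± 0.19 and did not pass. Of 30 genes of Sertoli maturation and androgen response 2 rose and 2 fell (6.67% each, beside 4.71% and 2.71% of all genes), with a median of -0.24. Hsd17b1, a steroid dehydrogenase, stood at 7.77, 8.26 and 7.40, against 9.77, 10.40 and 9.08 (-1.94 ± 0.51, adjusted p = 0.00874), and lost its call without replicate 3 of 14.5 dpp (-1.74, adjusted p = 0.0522). The water channel Aqp5 fell by 1.61 ± 0.38 (adjusted p = 0.004). The water channel Aqp8 was at least 1.95-fold higher from below detection (adjusted p = 0.00116). Tmprss12 rose by 3.90 ± 0.66 (adjusted p = 0.000442) and encodes a protease known from male germ cells. Rhox5, the androgen target of Sertoli cells, was -0.68 ± 0.47 (adjusted p = 0.317).

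Of 13 Leydig cell genes 0 rose and 2 fell (15.4%, beside 2.71% of all genes), with a median of -0.40 and 12 of 13 below 0. Cyp17a1, the enzyme that commits steroids to the androgen path, stood at 7.42, 11.44 and 7.67 at 14.5 dpp, against 12.89, 11.71 and 11.24 at 11.5 dpp (-3.11 ± 0.87, limma adjusted p = 0.0131). Replicate 2 of 14.5 dpp lay among the younger arrays, so the groups overlapped, and the same array stood at 6.37 for the epididymal genes. The call was lost without replicate 1 (-2.39, adjusted p = 0.0888) or 3 (-2.52, 0.0885) of 14.5 dpp or replicate 1 of 11.5 dpp (-2.64, 0.074). Nr5a1 was the other called member. Without replicate 3 of 14.5 dpp or replicate 1 of 11.5 dpp, 0 members were called. Insl3, the Leydig cell hormone, stood at 10.99, 11.55 and 11.45, against 12.21, 11.38 and 11.45 (-0.35 ± 0.34, adjusted p = 0.491).

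Interstitial progenitor genes formed the somatic group with the most falls. Of 19 measured, 0 rose and 7 fell, with a median of -0.64 and 17 of 19 below 0. Dpt, dermatopontin of the matrix, stood at 6.49, 6.84 and 6.71 at 14.5 dpp, against 8.94, 8.28 and 8.25 at 11.5 dpp (-1.81 ± 0.30, adjusted p = 0.00041). Mfap4, a microfibril protein, had 10.36, 11.07 and 9.99, against 12.19, 11.51 and 11.78 (-1.35 ± 0.33, adjusted p = 0.00557). Inhba, a subunit of activin, stood at 7.29, 7.61 and 7.27, against 8.11, 8.81 and 9.04 (-1.26 ± 0.28, adjusted p = 0.00261). The 3 genes were lower on every older array. Dlk1, an imprinted ligand-like protein of stromal precursors, stood at 12.19, 12.56 and 11.88, against 13.21, 13.63 and 13.43 (-1.21 ± 0.31, adjusted p = 0.00724), and just missed the threshold without replicate 3 of 14.5 dpp (-1.05, adjusted p = 0.0519). Igf1 (-1.10), Tcf21 of mesenchyme (-1.01) and the gonadal factor Lhx9, at least 1.53-fold lower with no detection at 14.5 dpp, were the other called members. The count was 3 without replicate 3 of 14.5 dpp. The mean of the list was 8.22, 8.55 and 8.29 at 14.5 dpp, against 8.93, 9.10 and 9.10 at 11.5 dpp.

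Of 30 collagen and matrix genes 0 rose and 2 fell (6.67%, beside 2.71% of all genes), with a median of -0.51. Of the 30, 25 were below 0, against 56.5% of all genes. Col6a2, a chain of microfibrillar collagen, stood at 8.31, 9.04 and 8.57, against 10.38, 9.89 and 9.77 (-1.37 ± 0.34, adjusted p = 0.00571), and the gelatinase Mmp2 was -1.09 ± 0.38 (adjusted p = 0.0399). Col6a2 was called in all 6 settings without 1 array and Mmp2 in 1 of them. Col1a1 was -0.89 ± 0.36 and did not pass (adjusted p = 0.0796).

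Among the lists of other cells that a dissected testis can hold, the endothelial one alone held called genes. Of 21 endothelial genes 0 rose and 2 fell (9.52%, beside 2.71% of all genes), with a median of -0.41. Gpihbp1, the lipase anchor of capillaries, was detected at 11.5 dpp alone, at least 1.95-fold lower (adjusted p = 0.0057). Sox18 of vessels fell by 1.07 ± 0.32 (adjusted p = 0.0172), not called without replicate 3 of 14.5 dpp (0.105) or replicate 1 of 11.5 dpp (0.088). Of 13 peritubular myoid genes, 22 macrophage genes, 7 lymphocyte and granulocyte genes and 7 erythrocyte genes 0 were called, with medians of -0.44, -0.17, -0.48 and -0.90. Hba-a1, a globin, stood at 12.83, 12.32 and 13.07 at 14.5 dpp, against 14.25, 13.42 and 13.24 at 11.5 dpp (-0.90 ± 0.73, adjusted p = 0.404). Of 2 measured genes of epididymis and rete testis epithelium 0 were called. In all these somatic lists the median lay below that of all genes except the epididymal one, and the part of the share of germ cell RNA in that was not tested.

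Of 30 mitotic cell cycle genes 0 rose and 2 fell (6.67%, beside 2.71% of all genes and 1 to 3 members when 1 array was left out), with a median of -0.12, and both encode enzymes that make thymidine nucleotides. Tk1, thymidine kinase, stood at 8.19, 8.78 and 7.97 at 14.5 dpp, against 9.79, 9.47 and 9.25 at 11.5 dpp (-1.19 ± 0.25, adjusted p = 0.00183), and Tyms, thymidylate synthase, at 9.82, 10.16 and 9.91, against 11.25, 10.85 and 10.99 (-1.07 ± 0.24, adjusted p = 0.00311). Tyms fell under the 2-fold minimum without replicate 1 of 14.5 dpp (-0.99) or replicate 1 of 11.5 dpp (-0.95). Ccnd1, a cyclin of the first gap phase, was -0.02 ± 0.27. Of 17 cholesterol synthesis genes 0 rose and 2 fell (11.8%, and 1 to 3 genes without 1 array), with a median of -0.50 and 15 of 17 below 0. Fdps, which makes farnesyl diphosphate, stood at 11.53, 11.46 and 11.37, against 12.51, 12.57 and 12.51 (-1.08 ± 0.14, adjusted p = 9.11e-05), with every older array below every younger one. Dhcr7, of the last step, was -1.17 ± 0.30 (adjusted p = 0.00675), and -1.0 without replicate 1 of 14.5 dpp, just under the minimum.

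Of 14 imprinted growth genes 0 rose and 2 fell (14.3%, beside 2.71% of all genes), with a median of -0.48. Besides Dlk1 the called one was Mest, at 5.32, 5.83 and 5.24, against 6.43, 6.51 and 6.47 (-1.0 ± 0.27, adjusted p = 0.0103), at the edge of the minimum and not called in 3 of the 6 settings without 1 array. Igf2 was -0.42 ± 0.26 (adjusted p = 0.255). Of 13 housekeeping genes 0 rose and 1 fell (7.69%), with a median of -0.37. The one was Rpl13a, a ribosomal protein gene, at 9.10, 9.27 and 9.07, against 10.73, 9.72 and 10.07 (-1.03 ± 0.30, adjusted p = 0.0171), not called in 3 of those 6 settings, with -0.75 without replicate 1 of 11.5 dpp.

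Of 29 immediate early and stress genes 3 rose (10.3%, beside 4.71% of all genes) and 0 fell, with a median of 0.30. Hspa1b, an inducible heat shock gene, stood at 8.81, 8.96 and 9.29 at 14.5 dpp, against 5.45, 6.12 and 6.01 at 11.5 dpp (3.16 ± 0.63, adjusted p = 0.00131), and its mean was 8.06 at 16.5 dpp and 10.02 at 21.5 dpp. Fosb, a gene induced within minutes of a stimulus, was high on 2 of the 3 older arrays, at 8.76, 4.70 and 8.50, against 4.62, 5.05 and 5.17. It was below detection on all 3 arrays at 11.5 dpp and on replicate 2 of 14.5 dpp. Its difference of 2.37 ± 0.70 (adjusted p = 0.0176) rests partly on background signal and is no bound. Zfp36, another rapidly induced gene, had 10.93, 9.51 and 10.83, against 9.43, 9.18 and 8.93 (1.25 ± 0.32, adjusted p = 0.00736). Replicate 2 of 14.5 dpp was the lowest older array for Fosb and Zfp36, and not for Hspa1b. Without that array 8 of the 29 genes were called, and without replicate 1 or replicate 3 of the same age 1 was. Fosb lost its call without replicate 1 (adjusted p = 0.136) or 3 (0.128) of 14.5 dpp or replicate 1 of 11.5 dpp (0.0676), and Zfp36 without replicate 1 (0.0544) or 3 (0.058) of 14.5 dpp. The same array held the high Cyp17a1 value and the high level of epididymal genes, and the part of these in the result was not tested.

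The 12 largest separated falls came from varied genes. Ins2, an insulin gene, was the first, with 5.27, 5.38 and 5.40 at 14.5 dpp, below detection, against 8.04, 7.30 and 7.91 at 11.5 dpp, at least 4.29-fold lower (adjusted p = 0.000261). Tbata, a gene named for its expression in thymus, brain and testis, stood at 6.34, 7.01 and 6.14, against 8.90, 8.67 and 8.85 (-2.31 ± 0.37, adjusted p = 0.00034). Tubb2b, a beta tubulin, had 7.95, 8.24 and 7.83, against 9.90, 10.14 and 10.11 (-2.04 ± 0.33, adjusted p = 0.00034). Each of these was lower on all older arrays by more than 1.5 log2 units. Gsg1l, an auxiliary subunit of glutamate receptors, was at least 2.80-fold lower, the galectin Lgals7 fell by 2.06, and the defensin Defb42 was at least 1.86-fold lower. Myoz2 (at least 3.37-fold), the peptide transporter Slc15a2 (at least 2.80-fold), Sbspon (at least 2.27-fold) and the epidermal gene Lor (at least 2.75-fold) were also below detection at 14.5 dpp. Hsd17b1 and 1700031F05Rik, described above, complete the 12. Slc15a2 lost its call in 4 of the 6 settings without 1 array.

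The called genes were followed over the other in vivo ages. The median level of the 590 rising genes was 6.28, 6.32, 6.53, 7.17, 8.73, 8.29 and 10.55 at 7.5, 9.5, 11.5, 13.5, 14.5, 16.5 and 21.5 dpp. That of the 339 falling genes was 8.20, 8.34, 7.96, 7.60, 6.70, 7.09 and 5.98. The mean at 13.5 dpp lay between those of 14.5 and 11.5 dpp for 526 of the rising and 320 of the falling genes. The mean at 21.5 dpp lay further out than that at 14.5 dpp for 483 and 288 of them, and the mean at 16.5 dpp did so for 87 and 51. All these genes were chosen by their means at 14.5 and 11.5 dpp. A mean at 13.5 dpp between those, and a less extreme one at 16.5 dpp, follow in part from that choice. The shares over all genes were not computed. Compared with the mean of 13.5 and 16.5 dpp in the same limma fit, a comparison added after the data were seen, 83 genes were higher (0.663% of those tested) and 11 lower (0.0879%) at 14.5 dpp. Of the 590 rising genes 39 were among the 83, and of the 339 falling genes 8 were among the 11. This comparison and the call share the arrays of 14.5 dpp, so the overlap is no separate support. Of the genes named by rule for the step, Dpt passed this comparison (-1.18, limma adjusted p = 0.0156).

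The neighbouring ages were scattered. The mean of the 36 pachytene genes was 8.56 to 9.10 on the 3 arrays at 14.5 dpp, against 6.59 and 8.09 on the 2 used at 13.5 dpp and 8.89, 7.07 and 9.98 on the 3 at 16.5 dpp. One array at 16.5 dpp thus lay below all 3 at 14.5 dpp. All groups share one estimate of the spread in the fit. Without the 4 most scattered groups, an alternative added after the data were seen, 619 genes rose and 336 fell.

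**Figure D4:**
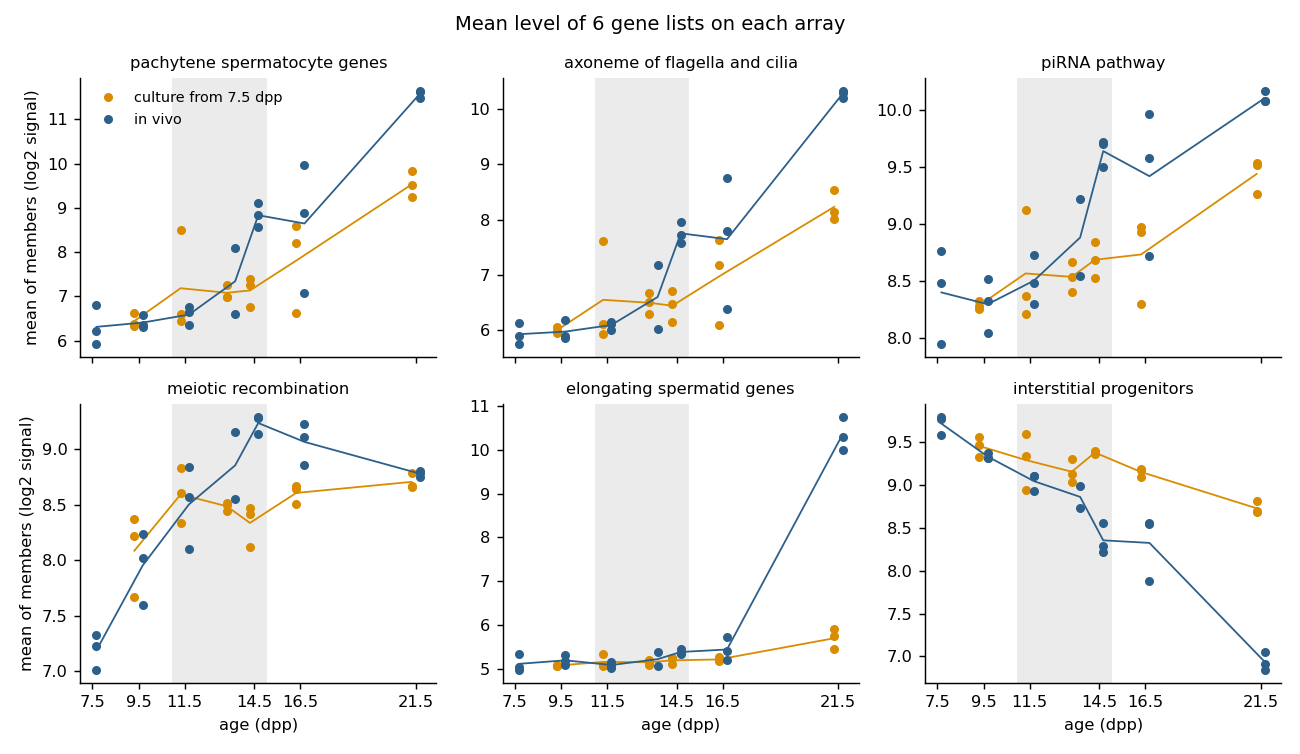
Mean normalized log2 signal of the measured genes of 6 lists on each array (points) by age in dpp (horizontal axis), for testes cultured from 7.5 dpp (orange) and in vivo (blue); lines join group means and the grey band marks the ages compared. In vivo the pachytene list reaches 8.56 to 9.10 at 14.5 dpp, against 6.36 to 6.75 at 11.5 dpp, while the 3 cultures of 14.5 dpp lie between 6.75 and 7.40 and one culture of 11.5 dpp at 8.51.

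The same 3 days in culture, from day 4 to day 7, gave a different change. In culture 274 genes were called higher (2.19%) and 248 lower (1.98%) on day 7 against day 4, together 4.17%. Of the 590 genes that rose in vivo, 7 were called higher and 19 lower in culture, and their median difference was -0.15 in culture, against 1.55 in vivo. Of the 339 genes that fell in vivo, 12 were called lower and 9 higher in culture, and their median was -0.09 in culture, against -1.18 in vivo. Both sets were chosen by their step in vivo, so the size of its median follows in part from that choice. The step in culture was not selected on. The difference between the steps, tested in the same limma fit as culture minus in vivo, was called for 1603 genes (12.8%), of which 751 were above 0 (6.00%) and 852 below (6.81%). Over all genes its median was 0.02. With arrays scaled by their medians only, that median was -0.28 and the counts were 199 above and 1394 below.

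Of the 36 pachytene genes 18 had a called difference below 0 and 0 above, and of the 50 axoneme genes 21 and 0. Tdrd5 stood 2.80 ± 0.62 lower in its step in culture than in vivo (limma adjusted p = 0.00332), and Spo11 2.67 ± 0.66 lower, with a step of -1.03 in culture, against 1.64 in vivo (adjusted p = 0.0071). Msh4 had steps of -0.67 in culture and 1.93 in vivo (adjusted p = 0.00141). Amh went the other way, with a step of 1.61 ± 0.49 in culture, against -1.82 ± 0.49 in vivo, and the steps differed by 3.42 ± 0.69 (adjusted p = 0.00157). Mt3, a metallothionein, had steps of 1.62 in culture and -1.68 in vivo (adjusted p = 0.000149), and Col6a2 steps of 1.06 and -1.37 (adjusted p = 0.00126). Of the 19 interstitial genes 6 had a called difference above 0, and 0 below. The steps of the X-linked genes had a median of -0.05 in culture, against -0.30 in vivo.

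One culture array weighs on this comparison. Replicate 3 of the 11.5 dpp culture had a mean of 8.51 over the 36 pachytene genes, against 6.44 and 6.60 on the other 2 arrays of that group and 6.75, 7.25 and 7.40 on the 3 of the 14.5 dpp culture. Its Ldhc level was 13.79, against 8.14 and 9.07 on the other arrays of the group. Without it 496 genes were called above 0 and 528 below, so the counts fell by more than 1.5 times. The difference between the steps of Ldhc, -5.89 ± 1.90 with all arrays (limma adjusted p = 0.0304), was then -4.16 and not called (adjusted p = 0.129), and it was also lost in 4 other settings that left out 1 array. Tdrd6 was -5.45 with all arrays and -3.97 without that one (adjusted p = 0.0825). Amh, Msh4, Spo11, Tdrd5 and Mt3 were called in all 12 settings that left out 1 array of these 4 groups. Such settings leave out single arrays and do not test the 14.5 dpp culture group as a whole. The 14.5 dpp cultures had the lowest mean signals of the series, 368 to 437, and the part of this in the difference was not tested.

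**Figure D5:**
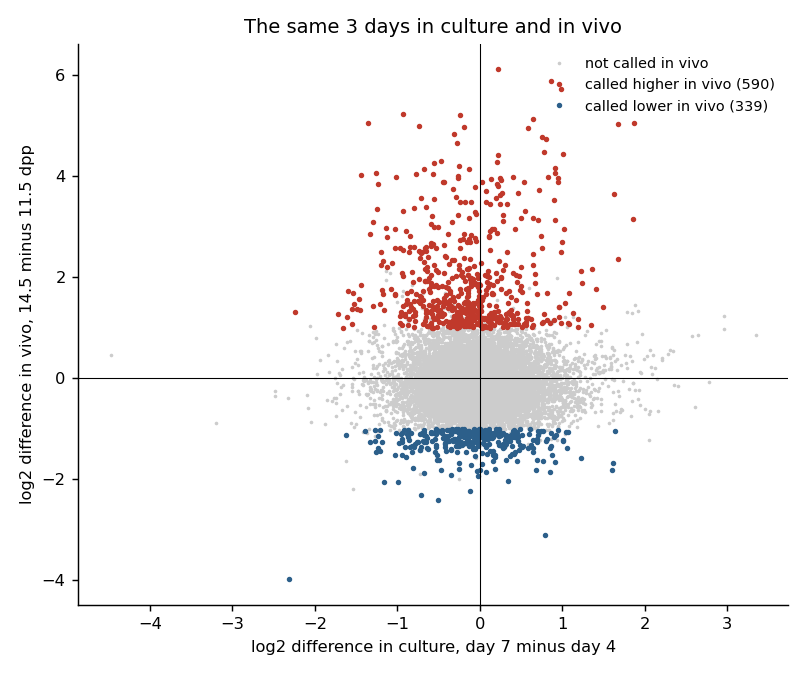
Log2 difference in vivo, 14.5 minus 11.5 dpp (vertical axis), against the log2 difference in culture, day 7 minus day 4 (horizontal axis), for each of 12518 genes; red points rose and blue points fell in vivo, and grey points were not called. The 590 red points have a median of -0.15 on the horizontal axis (culture) and 1.55 on the vertical axis (in vivo), by which they were chosen.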

How the data were processed

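RNA of mouse testes was measured on 1-colour Illumina bead arrays. The table used holds probe signal intensity, deposited by the authors before normalization, with a detection p-value per probe and array, per the file headers. A second deposited table holds the authors' normalized log2 values, and the tool lumi is named, with no version, in the submitters' processing notes. No source used here gives its steps or centring, and it served as an alternative only. Of the signal columns 1 could not be matched to a label and was not used, so 38 arrays entered the fit, with 2 at 13.5 dpp.

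Intensities were background-corrected and quantile-normalized with limma 3.58.1 in R 4.3.3 (neqc, offset 16, negative controls inferred from the detection p-values). Probes with a detection p below 0.01 on at least 3 arrays were kept, 23665 of 45281. Of all probes 34885 had 1 gene symbol in the platform annotation, 18 several and 10378 none. Each of 12518 genes was represented by its probe of highest mean. Of the called genes 361 had several kept probes, and in 29 another probe had the opposite sign. One limma model with 13 group means (25 residual degrees of freedom, eBayes with trend) gave every test, with Benjamini-Hochberg adjustment over all genes. The exact permutation test of 3 arrays against 3 cannot go below 0.1 and was not used. The procedure was tested on simulated data. The number of arrays limits the precision.

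Genes were named by rule: the 12 largest separated rises and falls detected on all arrays of the higher group, 62 hallmark genes (50 measured), and up to 4 called members of each list in each direction. Genes beyond this rule were named after their values were seen. For the difference between the steps, the 6 largest in each direction were added. The members and lists were chosen with earlier results of these data known. Alternatives covered background, scaling, filters, probes, samples, thresholds and leaving out each array.

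The labels do not say if the replicate numbers pair the samples, and no pairing was seen. Deviations from the group means of same-numbered arrays at both ages correlated at -0.0854, -0.054 and 0.0106 across genes. Differently numbered arrays correlated at -0.0794 to 0.0969. A source shared by equal numbers was not tested otherwise.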

Additional observations from a re-analysis of the deposited data

Results flagged for a closer look

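The steps in culture (day 7 minus day 4) and in vivo (14.5 minus 11.5 dpp) differed by limma's test of the difference itself for 1603 genes. Among the hallmark genes, each value below is the log2 step in culture minus that in vivo. Germ cell genes were lower in this difference: Ldhc (-5.89), Clgn (-3.50), Tcp11 (-3.26), Tdrd5 (-2.80), Dnali1 (-2.78), Zpbp2 (-2.72), Spo11 (-2.67), Pgk2 (-2.65), Msh4 (-2.60), Meiob (-2.30), Rfx2 (-2.17), Hspa2 (-1.95), Piwil2 (-1.87), Brdt (-1.69), Tcfl5 (-1.33) and Aurkc (-1.28). Stra8 of meiotic entry (1.65) and the somatic genes Cyp17a1 (3.90), Amh (3.42), Rhox5 (2.08), Dlk1 (1.86), Col1a1 (1.80) and Insl3 (1.41) were higher in it. The step of Cyp17a1 in culture was 0.79 and did not pass (limma adjusted p = 0.608). Its mean was 6.29 on day 4 of culture, against 11.95 in vivo at 11.5 dpp. In vivo at 14.5 dpp its values were 7.42, 11.44 and 7.67. Of the 43 named genes with a called difference, 16 kept the call without each array in turn and 27 lost it at least once. Among the hallmark genes listed here, Clgn, Tdrd5, Spo11, Msh4, Piwil2, Amh and Dlk1 kept it in all 12 settings. Dnali1 and Pgk2 each lost it in 9 settings, Aurkc in 8, Brdt and Rhox5 in 7, Cyp17a1 and Insl3 in 6 and Ldhc in 5. The other hallmark genes listed lost it in 1 to 4 settings. Aurkc, Col1a1, Insl3, Rhox5 and Stra8 had no called step in vivo. Dnali1, Pgk2, Tcp11 and Zpbp2 were below detection at 11.5 dpp in vivo, so that their values rest partly on background signal.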

How the results depend on the processing

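No gene called in the main setting was called in the opposite direction in any other setting. Without background correction 121 genes fell in vivo, and the difference between the steps (culture minus in vivo) was above 0 for 458. With the authors' normalized values 235 rose and 43 fell in vivo, and 209 differences were above 0 and 371 below. Scaling by array medians gave 199 above and 1394 below, with the median over all genes at -0.28 in place of 0.02. Without a minimum difference 1182 rose and 1383 fell, and 1128 differences were above 0. At an adjusted p below 0.01, 390 rose and 210 fell, and 326 differences were above 0 and 391 below. Leaving out each array in turn gave 399 to 653 rising and 229 to 466 falling genes, lowest without replicate 3 of 14.5 dpp, and 496 to 866 differences above 0 and 528 to 904 below, lowest without replicate 3 of the 11.5 dpp culture. With the replicate block 600 rose and 343 fell, and 780 differences were above 0 and 903 below, although no pairing by number was seen. Other filters, probe averaging, smaller sets of groups and eBayes without trend stayed within 1.5 times of the reported counts. The causes were not tested, other than the thresholds' own construction. Of 99 named genes called in vivo, 67 kept their call without each array in turn. Genes near background have only a bound at one age.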
